A study of Mus musculus with 16 samples.

Results

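The subject is 10 genes of the Serpina group in mouse liver, out of 78317 genes listed in the deposited tables. They were taken by symbol and are given here with the Ensembl identifiers of the tables: Serpina1a (ENSMUSG00000066366.15), Serpina1b (ENSMUSG00000071178.12), Serpina1c (ENSMUSG00000079015.3), Serpina1d (ENSMUSG00000071177.5) and Serpina1e (ENSMUSG00000072849.11), Serpina3c (ENSMUSG00000066361.4), Serpina3k (ENSMUSG00000058207.7), Serpina3m (ENSMUSG00000079012.12) and Serpina3n (ENSMUSG00000021091.9), and Serpina6 (ENSMUSG00000060807.8). All 10 had enough counts to be tested. RNA was measured in homogenized whole liver of wild-type C57BL/6J mice, in 16 libraries that form 4 groups of 4. Mice of both sexes arrived aged 6 weeks and then ate, for 10 weeks, either a normal chow (4.5% of its calories from fat) or a high fat diet (60%). The stated purpose was to test the high fat diet in both sexes. The chow and the high fat diet were products of different suppliers, so a diet difference covers everything in which those products differ. The labels number the replicates but do not say outright that each is a separate animal, so p-values measure the spread between these libraries.

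Serpins are proteins that trap a protease by offering it a flexible bait, the reactive centre loop, and changing shape once it is cut. Hepatocytes secrete many of them into plasma. Alpha-1-antitrypsin, which people make from a single gene and which protects lung tissue from neutrophil elastase, is made in mice from a cluster of near-identical copies, Serpina1a to Serpina1e in this strain. The human antichymotrypsin gene SERPINA3 likewise has a whole cluster of mouse relatives, among them Serpina3c, Serpina3k, Serpina3m and Serpina3n. Serpina6 encodes corticosteroid-binding globulin, a serpin that carries glucocorticoid hormones in plasma and does not inhibit proteases. Several members are known for levels that differ between male and female rodent liver, where the pattern of growth hormone secretion sets much of the sex difference, and Serpina3n is known as an acute phase gene.

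Library totals ranged from 22228115 to 41420589 expected counts. Of 8 hepatocyte markers, Alb, Ahsg, Cps1 and others, 7 were found by symbol, all 7 detected, at 57882 to 122870 CPM in sum (CPM, counts scaled to the same library size). Xist lay between 116.5 and 340.0 CPM in the 8 female libraries and at 1.60 CPM or less in the 8 male libraries, and Ddx3y, on the Y chromosome, lay between 83.8 and 132.1 CPM in males and at 0.549 CPM or less in females. Male high fat diet replicates 2 and 3 were unusually alike. Their counts differed with a chi-square of 4.00 per gene, against 20.7 to 306.5 for the other pairs within a group. They differed by more than sampling noise, which does not show that they are separate animals: 1 liver or library prepared or sequenced again could differ as much. Whether they are was not tested. They are counted as 2 of the 4 replicates in the SDs and p-values of that group. Fitted results for members that rest on them are given also with the pair averaged to 1 library or with both left out. The tests of shares were not run in either way. Leaving both out keeps 2 libraries in that group, which are then assumed to vary like the others. The alternative without the pair was chosen after the values were seen.

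The 10 genes together held 2.30% to 5.01% of all counts of a library. As TPM (a level per transcript length, so that genes can be compared), their sum was 27424 ± 2539 (SD, n = 4) in females on the normal diet, 25610 ± 1282 (SD, n = 4) in females on the high fat diet and 46357 ± 3173 (SD, n = 4) in males on the normal diet. In high fat diet males it was 44839, 26995, 27695 and 41624 in replicates 1 to 4, so replicates 2 and 3 lay among the females' values and replicates 1 and 4 near those of males on the normal diet. In TPM, females on the normal diet had Serpina3k, Serpina1b and Serpina1c as the leading members, at means of 6080, 5977 and 5420 TPM, and these neighbours overlapped from library to library. Serpina1a and Serpina1d followed at 4263 and 4137 TPM, also overlapping. A step down came next, to Serpina3m at 614 TPM, and below it, overlapping from one to the next, Serpina6, Serpina1e and Serpina3n at 408, 301 and 225 TPM, and Serpina3c was nearly silent at 0.065 TPM. The order in females on the high fat diet was led by Serpina1b at 6253 TPM and Serpina1c at 5292 TPM, whose libraries did not overlap each other. In males on the normal diet, Serpina1e stood at the top with 13560 ± 1542 TPM (SD, n = 4), overlapping with Serpina3k at 11315 ± 1031 TPM (SD, n = 4), ahead of Serpina1c at 7425 TPM and Serpina1b at 5067 TPM. In high fat diet males Serpina3k led at 9298 ± 2840 TPM (SD, n = 4), overlapping with Serpina1c at 8102 TPM.

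**Figure D1:**
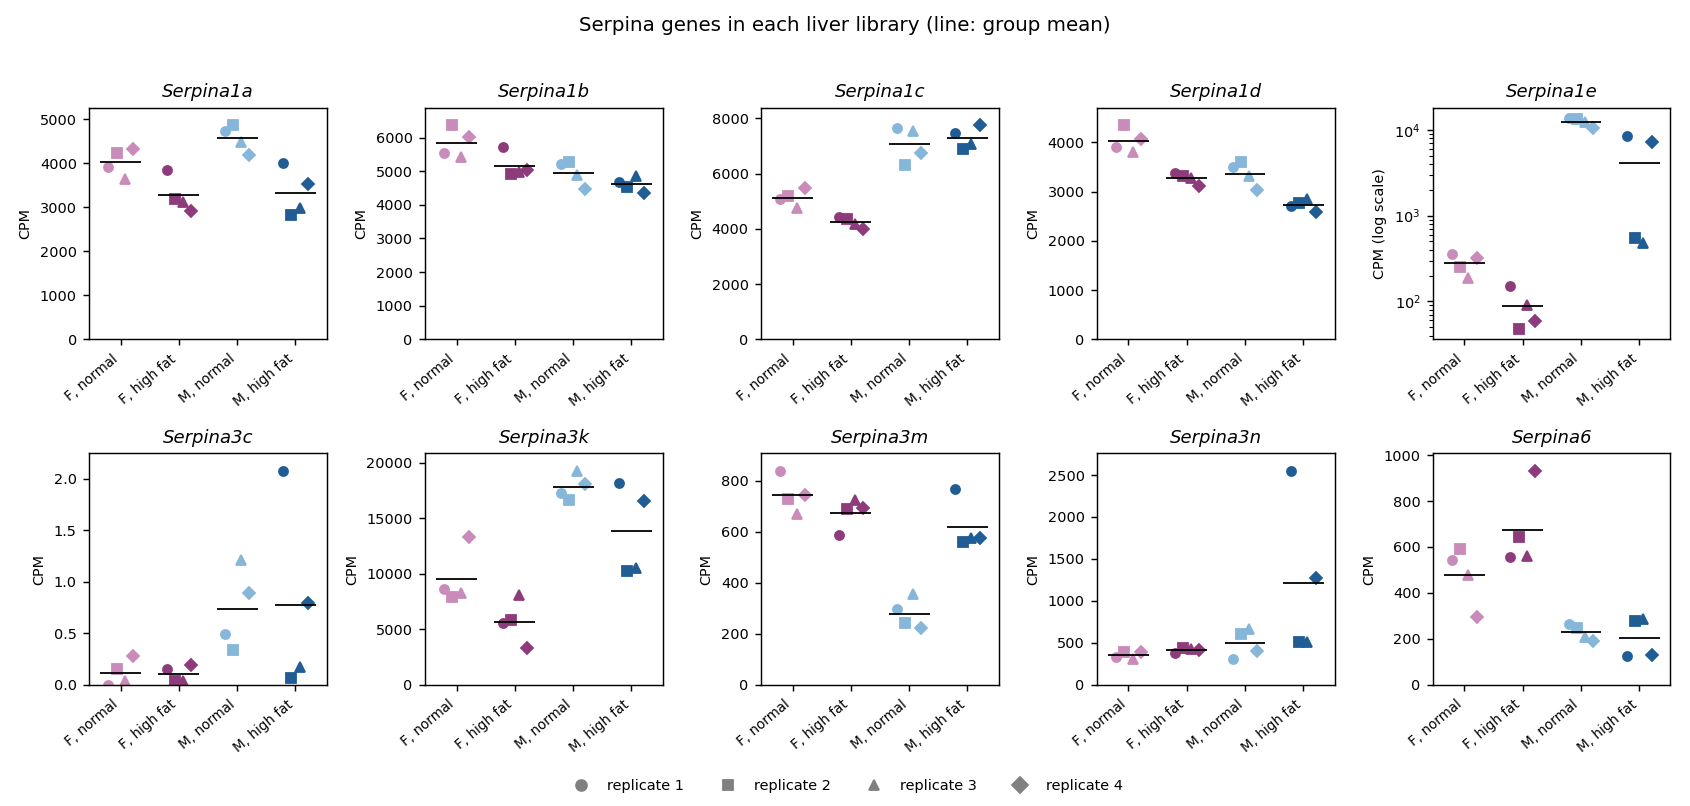
CPM (counts relative to the scaled library size) of each of the 10 genes in the 16 libraries; the y axis is linear from 0 except for Serpina1e, where it is logarithmic. Marker shape gives the replicate number within a group and the line the group mean; for Serpina1e the males on the normal diet lie between 10628 and 13654 CPM and the females at 356 CPM or less, and male high fat diet replicates 2 and 3 lie at 542 and 483 CPM.

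Serpina1e was the member with the widest range of the 9 with counts in every library, 285-fold from its lowest to its highest library. Females on the normal diet had 356, 253, 189.8 and 320.1 CPM in replicates 1 to 4, and females on the high fat diet had 151.6, 47.9, 91.3 and 58.7 CPM. Males on the normal diet had 13654, 13488, 12384 and 10628 CPM, and males on the high fat diet had 8403, 542, 483 and 7146 CPM. No female library reached the lowest male library on either diet, and the male high fat diet group was split into a low pair, replicates 2 and 3, and a high pair. On the normal diet Serpina1e was lower in females than in males by a log2 fold change of -5.49 (SE 0.91, adjusted p = 0.0018), a 44.8-fold difference by edgeR's quasi-likelihood test with Benjamini-Hochberg adjustment over all tested genes, which gives every adjusted p below unless another test is named. On the high fat diet the difference was -5.57 (SE 0.91, adjusted p = 0.00143). With male replicates 2 and 3 left out it was -6.48 (SE 0.39, adjusted p = 1.35e-07).

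The diet differences of Serpina1e had the same sign in both sexes and did not pass the test. In females the log2 fold change of high fat over normal diet was -1.68 (SE 0.77, adjusted p = 0.182), although the 4 high fat libraries all lay below the 4 normal diet libraries. DESeq2 called this difference with an adjusted p of 0.0397, and a fit of the compared groups alone with 0.0335. In males it was -1.60 (SE 0.77, adjusted p = 0.200), again without overlap between the groups, and DESeq2 called it at an adjusted p of 0.0498. It was -0.69 (SE 0.37, adjusted p = 0.299) with replicates 2 and 3 left out and -2.57 (adjusted p = 0.0586) by limma on log2(TPM + 1). Without those replicates, the spread fitted for Serpina1e was smaller, and the difference in females, -1.68, was called (SE 0.30, adjusted p = 0.00414). The difference between the sexes' diet changes was -0.08 (SE 1.06, adjusted p = 0.986).

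The 5 Serpina1 copies are close relatives in sequence, which bears on how well reads can be told apart. Over the longest open reading frames of the GENCODE M21 transcripts, the copies were identical at 96.3% to 98.5% of aligned coding bases, with Serpina1a and Serpina1c the closest pair at 98.5%. Of all 100-base windows of the coding sequence, 61.1% in Serpina1a, 61.7% in Serpina1c, 33.2% in Serpina1d, 29.9% in Serpina1b and 19.1% in Serpina1e also occurred without a mismatch in a transcript of another gene. The expected counts of all 5 were fractional in all 16 libraries, as arises when RSEM divides reads that map to several genes. The M21 gene model of Serpina1b also spans Serpina1d, and that of Serpina1c spans B430119L08Rik on the opposite strand. Whether strand was used in counting is not given in the sources used here. Levels of Serpina1a to Serpina1d are therefore uncertain as a division among copies, while Serpina1e had the smallest shared part of the 5.

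The reactive centre loop is shown because it is what sets a serpin's target and because the copies are less alike there. The window runs from the codons of the conserved hinge to those before the conserved motif that follows the loop, 66 bases in each copy, 5′ to 3′ on the coding strand, with capitals at the 15 positions where the 5 copies are not all the same.
Serpina1a: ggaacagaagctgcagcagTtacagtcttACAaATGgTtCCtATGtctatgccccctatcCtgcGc
Serpina1b: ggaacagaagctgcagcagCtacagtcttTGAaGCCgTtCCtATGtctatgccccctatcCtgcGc
Serpina1c: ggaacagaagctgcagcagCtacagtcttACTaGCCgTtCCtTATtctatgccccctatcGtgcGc
Serpina1d: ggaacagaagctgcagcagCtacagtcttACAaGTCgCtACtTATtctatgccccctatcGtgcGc
Serpina1e: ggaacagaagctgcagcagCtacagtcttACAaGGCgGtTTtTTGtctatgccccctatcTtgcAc
In this window Serpina1e differed from each other copy at 8 to 10 of the 66 bases, and Serpina1c and Serpina1d, the closest pair here, differed at 4. Identity in the loop was 84.8% to 93.9%, below the 96.3% to 98.5% of the whole coding sequence.

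The promoters of the 5 copies are shown because Serpina1e and the other copies had such different levels in females. The promoter table of RefSeq (GRCm38.p6, a build other than the GRCm39 of the files) holds 250 bases before and 50 after the start of 7 of the 10 genes. After alignment, 238 bases were shared by all 5 Serpina1 promoters. Serpina1e differed from Serpina1b at 4 of these, an identity of 98.3%, and the other pairs were identical at up to 96.2%. A 120-base stretch of each follows, with capitals at the 10 positions that are not the same in all 5. The stretches lie on the minus strand at chr12:103863625-103863744 (Serpina1a), chr12:103738200-103738319 (Serpina1b), chr12:103904962-103905081 (Serpina1c), chr12:103773634-103773753 (Serpina1d) and chr12:103956960-103957079 (Serpina1e). The last base is 1 to 12 bases before the annotated start, except in Serpina1e, where it is 63 bases before a start that RefSeq places further downstream.
Serpina1a: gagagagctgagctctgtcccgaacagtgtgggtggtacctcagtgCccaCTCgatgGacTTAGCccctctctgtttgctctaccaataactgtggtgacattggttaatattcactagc
Serpina1b: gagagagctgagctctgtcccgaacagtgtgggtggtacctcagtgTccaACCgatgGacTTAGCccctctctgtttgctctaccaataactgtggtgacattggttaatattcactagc
Serpina1c: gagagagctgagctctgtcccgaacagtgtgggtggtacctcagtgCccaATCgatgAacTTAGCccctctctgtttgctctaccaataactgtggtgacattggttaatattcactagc
Serpina1d: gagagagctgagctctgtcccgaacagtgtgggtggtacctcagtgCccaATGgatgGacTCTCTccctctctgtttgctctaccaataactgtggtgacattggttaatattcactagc
Serpina1e: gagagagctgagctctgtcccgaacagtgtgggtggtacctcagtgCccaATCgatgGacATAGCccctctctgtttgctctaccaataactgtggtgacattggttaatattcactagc
Serpina1e had 1 base in this stretch that none of the other 4 shared, while Serpina1d had 5. With the motifs' letters searched on both strands, GTTAAT, a half-site of the hepatocyte factor HNF1, was found in all 5 Serpina1 promoters and in that of Serpina3c, 6 of the 7 examined, against 7.10% of the 32851 promoters of 300 bases in the table. The letters AGAACA, a half-site of steroid hormone receptors, were in all 7, against 19.0% of all promoters. The letters TTCNNNGAA, a STAT site, were in none of the 7 windows and in 8.30% of all promoters. The 5 Serpina1 promoters are near-copies of each other, as are those of Serpina3c and Serpina3n, so the 7 are not separate cases. None of the 3 motifs contains another, and a match describes the sequence alone.

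Serpina1c was the other copy that differed between the sexes on both diets. It lay between 4755 and 5461 CPM in females and between 6300.0 and 7630.4 CPM in normal diet males, and between 4002 and 4438 CPM in females and 6894 and 7757 CPM in high fat diet males. The sexes did not overlap on either diet. Serpina1c was lower in females by a log2 fold change of -0.46 (SE 0.10, adjusted p = 0.00659) on the normal diet and by -0.78 (SE 0.11, adjusted p = 7.03e-05) on the high fat diet.

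In CPM, Serpina1a was lower in males that ate the high fat diet. Its levels were 4729, 4876, 4486 and 4194 CPM in normal diet males and 4007, 2826, 2981 and 3523 CPM in high fat diet males, and the groups did not overlap. In TPM they overlapped, with 4439 in high fat diet replicate 1 and 4396 in normal diet replicate 4. The log2 fold change was -0.46 (SE 0.13, adjusted p = 0.0294). The call was lost in 12 of 18 alternatives. It was lost with replicates 2 and 3 averaged (-0.40, adjusted p = 0.0955), either left out (adjusted p = 0.0951 and 0.0892) or both left out (-0.28, adjusted p = 0.232), and also without any of male normal diet replicates 1, 2 or 3, at adjusted p-values of 0.0594 to 0.0684. The other losses were on unscaled library totals, without the low count filter, by limma with either pseudocount and with the compared groups alone, at 0.0501 to 0.0711. In females the difference was -0.30 (SE 0.13, adjusted p = 0.137).

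Serpina1b and Serpina1d, whose levels ran together across libraries (Pearson's r = 0.91 over 16 libraries), were not called in any contrast by edgeR. In CPM, however, both lay higher in females on either diet without overlap. Serpina1d lay between 3807 and 4353 CPM in females on the normal diet, 3108 and 3377 CPM in females on the high fat diet, 3024 and 3592 CPM in normal diet males and 2594 and 2856 CPM in high fat diet males. In CPM its diet groups did not overlap in either sex. The log2 fold changes were -0.30 (SE 0.10, adjusted p = 0.0561) in females and -0.30 (SE 0.10, adjusted p = 0.0609) in males, and DESeq2 called both. In TPM the female groups overlapped, at 3820 to 4269 on the normal diet and 3789 to 4073 on the high fat diet. Over 18 alternatives the diet difference ran from -0.32 to -0.06 in females, with 2 calls. In males it ran from -0.35 to -0.21, with 1 call. Females over males Serpina1d had 0.27 (SE 0.10, adjusted p = 0.0775) on the normal diet and 0.26 (SE 0.10, adjusted p = 0.0720) on the high fat diet. DESeq2 called these as well, at adjusted p-values of 0.00281 and 0.00175, as did edgeR on unscaled library totals, at 0.0483 and 0.00929, and limma on log2(TPM + 1) called the second at 0.00299. Serpina1b had the narrowest range of all members, from 4355 to 6375 CPM over the 16 libraries. Its log2 fold changes lay between -0.18 and 0.23 in the 4 contrasts of groups. The sex difference on the normal diet, 0.23 (SE 0.11, adjusted p = 0.143), was called by DESeq2 at 0.0319, and that on the high fat diet, 0.16 (SE 0.11, adjusted p = 0.288), by limma on log2(TPM + 1) at 0.0208.

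Because reads can be divided wrongly among copies, the 5 were also summed and tested as 1 feature. The Serpina1 sum was 18818, 20418, 17802 and 20190 CPM in females on the normal diet and 17524, 15834, 15621 and 15132 CPM in females on the high fat diet. Males had 34723, 33538, 32627 and 29054 CPM on the normal diet and 27274, 17573, 18248 and 25376 CPM on the high fat diet. The sum was lower in females by -0.75 on the log2 scale (SE 0.14, adjusted p = 0.00197) on the normal diet and by -0.46 (SE 0.14, adjusted p = 0.0272) on the high fat diet, and it fell by 0.55 (SE 0.14, adjusted p = 0.0169) in high fat diet males. The last call was lost with male replicates 2 and 3 averaged (adjusted p = 0.0609), with either (0.0634 and 0.0599) or both left out (-0.31, adjusted p = 0.149), and with the compared groups alone (0.0716). The sex difference on the high fat diet lost its call in 9 of 18 alternatives. These were library totals without scaling (-0.34, adjusted p = 0.0882), limma with either pseudocount (-0.28, adjusted p = 0.162 on log2(TPM + 1)), the compared groups alone (0.121) and leaving out female replicate 2, 3 or 4 or male replicate 1 or 4 (0.0522 to 0.109). The sum of Serpina1a to Serpina1d alone, added after the values were seen, did not pass the test for diet in males (-0.15, SE 0.11, adjusted p = 0.380) or for sex on the normal diet (-0.07, SE 0.11, adjusted p = 0.702).

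**Figure D2:**
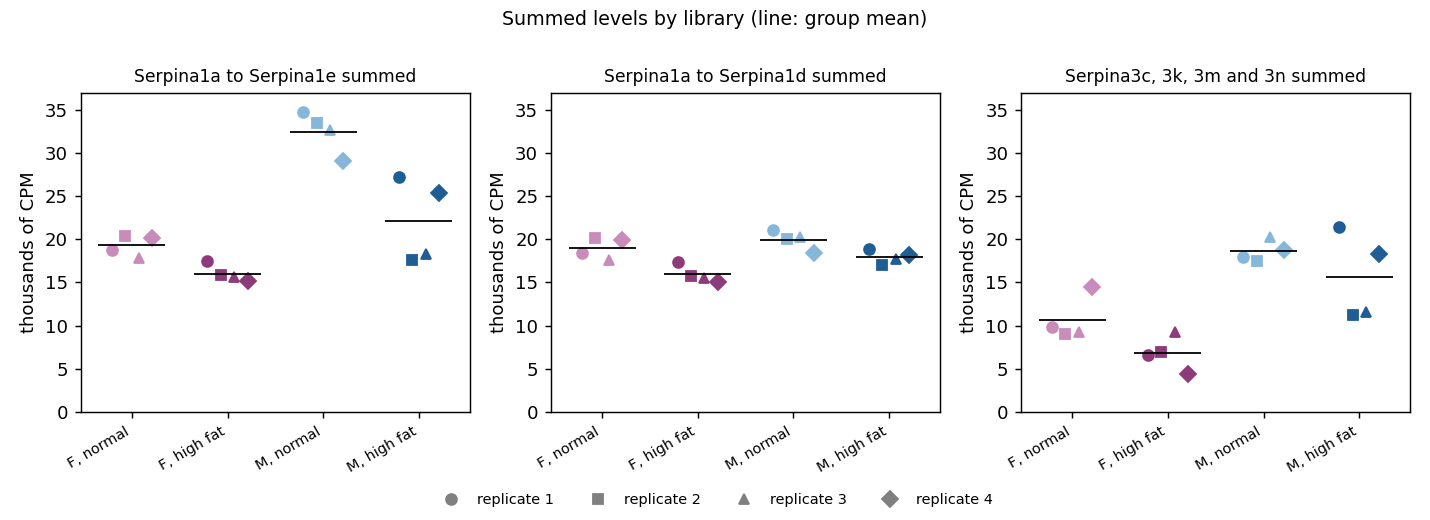
Summed CPM (axis in kilo-CPM) of Serpina1a to Serpina1e (left), of Serpina1a to Serpina1d (middle) and of the 4 Serpina3 genes (right) in each library, with the group mean as a line and the replicate number as the marker shape. Males on the normal diet lie between 29054 and 34723 CPM on the left, and between 18426 and 21069 CPM once Serpina1e is taken out.

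Serpina1e made up 1.97%, 1.29%, 1.11% and 1.65% of the summed Serpina1 TPM in females on the normal diet and 0.894%, 0.316%, 0.610% and 0.404% in females on the high fat diet. In males it made up 40.2%, 41.2%, 38.9% and 37.6% on the normal diet and 31.6%, 3.21%, 2.75% and 28.9% on the high fat diet. The 4 groups did not overlap in any of the 4 contrasts of groups. Each of these gave an exact two-sided permutation p of 0.0286, the smallest that 4 against 4 allows, and 0.0490 after adjustment over 36 tests of shares. These adjusted values stand close to the threshold, and leaving out 1 library raised many of them above it. All shares at the smallest p have the same adjusted value, which depends on how many tests reach that p. A lost call therefore need not mean that the groups of that share overlapped. Male high fat diet replicates 2 and 3 count here as 2 of 4 libraries, and the share tests were not run with them averaged or left out. Serpina1c took 39.7% and 39.2% of the sum in male high fat diet replicates 2 and 3 and 27.4% and 30.6% in replicates 1 and 4.

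**Figure D3:**
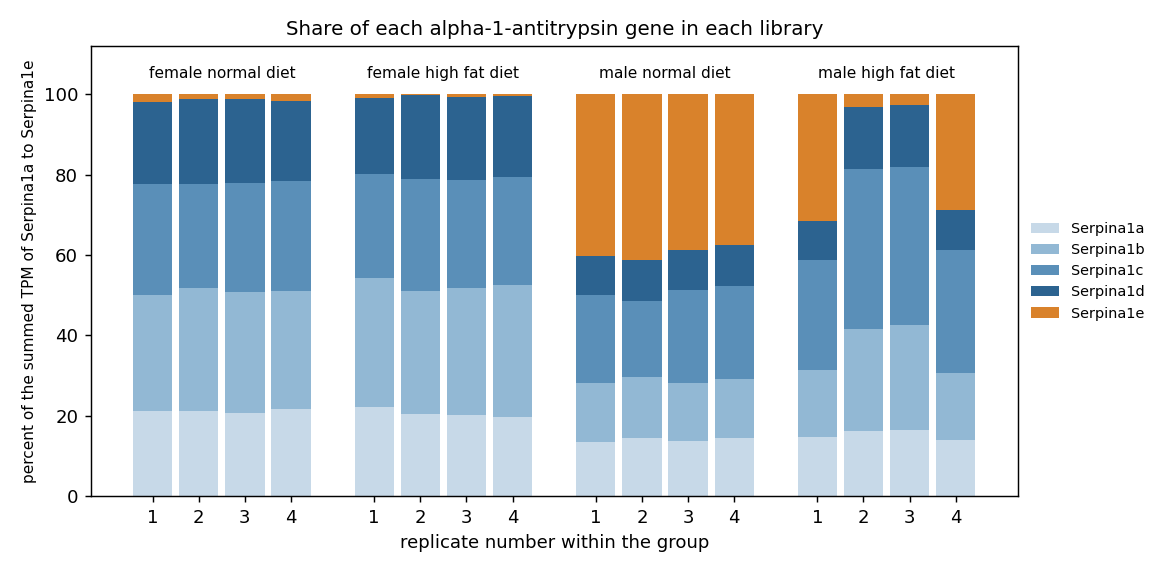
Stacked bars of the percent of the summed TPM of Serpina1a to Serpina1e that each copy contributes, 1 bar a library, grouped by sex and diet. Serpina1e takes 37.6% to 41.2% in normal diet males and under 2% in all 8 female libraries, and 31.6%, 3.21%, 2.75% and 28.9% in high fat diet males.

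Among the Serpina3 genes, Serpina3k, a protein known to bind tissue kallikreins, was the most abundant. Females on the normal diet had 8635, 7872, 8236 and 13346 CPM, and females on the high fat diet had 5599, 5829.6, 8092 and 3274 CPM. Males on the normal diet had 17304, 16597, 19297 and 18104 CPM, and males on the high fat diet had 18159.7, 10206, 10549 and 16511 CPM. Males lay above females on either diet without overlap. Serpina3k was lower in females by -0.90 on the log2 scale (SE 0.25, adjusted p = 0.019) on the normal diet and by -1.28 (SE 0.25, adjusted p = 0.00195) on the high fat diet. The call on the normal diet was lost without female normal diet replicate 1, 2 or 3 or male normal diet replicate 3, or without the low count filter, at adjusted p-values of 0.0535 to 0.0683. The diet difference did not pass the test in females (-0.74, SE 0.24, adjusted p = 0.0580, called by DESeq2 at 0.0182) or in males (-0.36, SE 0.24, adjusted p = 0.359). With male replicates 2 and 3 left out, the value in males was -0.04 (SE 0.27), and the call in females was made (-0.74, adjusted p = 0.0389). It was made in females also without female high fat diet replicate 3 (-0.95, adjusted p = 0.0213).

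Serpina3m rose on the high fat diet in males. Normal diet males had 298.5, 241.1, 355.2 and 224.0 CPM, and males on the high fat diet had 770, 561, 575 and 577 CPM. Females had 841, 731, 669 and 743 CPM on the normal diet and 586, 690.1, 726 and 692 CPM on the high fat diet. Normal diet males thus lay below the other 12 libraries, and the male high fat diet libraries overlapped with those of females. The log2 fold change of diet was 1.15 (SE 0.15, adjusted p = 0.000115) in males and -0.15 (SE 0.15, adjusted p = 0.554) in females, and the difference between the sexes' changes was -1.30 (SE 0.21, adjusted p = 0.00582). On the normal diet Serpina3m was higher in females by 1.42 (SE 0.15, adjusted p = 6.41e-06). The sex difference on the high fat diet was 0.12 (SE 0.15, adjusted p = 0.600). With male replicates 2 and 3 left out, the diet change in males was 1.27 (SE 0.17, adjusted p = 0.000407) and the interaction -1.41 (SE 0.22, adjusted p = 0.00559). These calls held in each of the alternatives run for them, 18 for diet in males, 18 for sex on the normal diet and 25 for the interaction.

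Serpina3k and Serpina3m are hard to separate. In M21 the gene model of Serpina3m starts at the same base as that of Serpina3k and spans it. The expected counts of both were fractional in all 16 libraries, and 8.20% of the 100-base coding windows of each occurred in the other. Their coding sequences were identical at 91.6% of aligned bases. The CPM of Serpina3k was 54.3 to 80.8 times that of Serpina3m in males on the normal diet, 18.2 to 28.6 times in high fat diet males, and 4.73 to 18.0 times in females. How far reads of one were counted for the other was not tested. Across the 16 libraries, which share their groups, the log2 CPM of the pair had r = -0.57. The Serpina3 sum, over the 4 genes, was lower in females by -0.81 (SE 0.23, adjusted p = 0.0244) on the normal diet and by -1.21 (SE 0.23, adjusted p = 0.00186) on the high fat diet. The first of these calls was lost without any 1 of 5 libraries, female normal diet replicates 1, 2 and 3 and male normal diet replicates 3 and 4, and without the low count filter, at adjusted p-values of 0.0517 to 0.0821.

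Serpina3n, which inhibits granzyme B and leukocyte elastase, had 335, 386, 307 and 394 CPM in females on the normal diet and 382, 437, 426 and 417 CPM in females on the high fat diet. Normal diet males had 304.4, 601, 671 and 406 CPM, and males on the high fat diet had 2554, 507, 510 and 1268 CPM. Male high fat diet replicates 1 and 4 stood above every other library, and replicates 2 and 3 lay inside the range of males on the normal diet. The diet difference in males was 1.29 (SE 0.43, adjusted p = 0.0671), which did not pass the test. It passed with replicates 2 and 3 averaged (1.55, SE 0.39, adjusted p = 0.0273), with either left out (adjusted p = 0.0272 and 0.0281) and with both left out (1.94, SE 0.27, adjusted p = 0.000676), and by DESeq2 (adjusted p = 0.0332). Serpina3n was lower in females on the high fat diet by -1.54 (SE 0.43, adjusted p = 0.0221). That call was lost in 9 of 18 alternatives. It was lost without male replicate 1 (-0.84, adjusted p = 0.063), male replicate 4 or female replicate 1 or 4, and by limma with either pseudocount (-1.03, adjusted p = 0.0887 on log2(TPM + 1)). It was also lost without the low count filter (adjusted p = 0.0611), with the replicate block (0.0613) and with the compared groups alone (0.0818). The difference between the sexes' diet changes was -1.06 (SE 0.60, adjusted p = 0.488), and -1.72 (SE 0.36, adjusted p = 0.0351) with male replicates 2 and 3 left out.

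Serpina3c was close to the limit of detection, from 0 CPM in 1 female library to 2.08 CPM in male high fat diet replicate 1. It lay at 0 to 0.279 CPM in the 8 female libraries and at 0.342 to 1.21 CPM in normal diet males. Males on the high fat diet had 2.08, 0.0679, 0.172 and 0.797 CPM, overlapping with females. Its expected counts were 12 to 33 in normal diet males, 0 to 11 in females, and 56, 2, 5 and 18 in high fat diet males. It passed the low count filter through male libraries of both diets, high fat diet replicates 1 and 4 among them, and through no female library. Its high libraries in the group compared thus helped it into the test on the high fat diet. In fits of the compared groups alone that lacked males on the normal diet it was left out. Serpina3c was called lower in females on the high fat diet (-2.84, SE 0.95, adjusted p = 0.0426), and the call was lost in 10 of the 17 alternatives, among them leaving out male replicate 1 (-1.59, adjusted p = 0.241). Its promoter is close in sequence to that of Serpina3n, which had at least 304.4 CPM in every library. Shown for that likeness, these 120-base stretches before the start lie at chr12:104153873-104153992 on the minus strand (Serpina3c) and chr12:104406585-104406704 on the plus strand (Serpina3n) in GRCm38.p6, with capitals at the 5 positions that differ.
Serpina3c: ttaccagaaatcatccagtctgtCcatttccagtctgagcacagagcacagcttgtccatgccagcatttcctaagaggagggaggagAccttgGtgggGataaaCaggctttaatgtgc
Serpina3n: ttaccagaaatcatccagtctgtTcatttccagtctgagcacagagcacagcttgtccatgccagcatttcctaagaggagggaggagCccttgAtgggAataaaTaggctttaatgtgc
Over the 294 aligned bases of the full promoters, they were identical at 93.5%. Their coding sequences were identical at 85.4%, and 60.6% of bases were identical in the reactive centre loop. The loops of the Serpina3 genes are shown because they differ far more than those of the Serpina1 copies, in length as well as in letters, with capitals where the 4 genes are not all the same.
Serpina3c: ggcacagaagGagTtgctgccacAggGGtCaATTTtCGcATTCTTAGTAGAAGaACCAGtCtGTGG
Serpina3k: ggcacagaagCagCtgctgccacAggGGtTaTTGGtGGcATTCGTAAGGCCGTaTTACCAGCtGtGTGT
Serpina3m: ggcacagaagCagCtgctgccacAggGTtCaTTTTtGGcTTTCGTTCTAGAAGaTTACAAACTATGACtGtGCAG
Serpina3n: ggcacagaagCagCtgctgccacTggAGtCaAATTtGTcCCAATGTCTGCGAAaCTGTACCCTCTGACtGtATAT
The loops of Serpina3k and Serpina3n shared 59.4% of aligned bases, and those of Serpina3c and Serpina3m 77.3%.

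Within the summed Serpina3 TPM, Serpina3k held 94.5% to 96.3% in normal diet males and 85.5% to 90.8% in females on the normal diet, without overlap (exact permutation p = 0.0286, adjusted p = 0.0490). Serpina3m held 1.55% to 2.25% in males and 6.55% to 10.8% in females on that diet, also without overlap and with the same p-values. In males the share of Serpina3m was 4.03% to 6.35% on the high fat diet, above every library on the normal diet.

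Serpina6, the glucocorticoid carrier, was higher in females. Females on the normal diet had 544, 591, 476 and 297 CPM, and females on the high fat diet had 555, 642, 561 and 933 CPM. Males on the normal diet had 265, 245, 210.4 and 192.7 CPM, and males on the high fat diet had 125.7, 277, 285 and 127.9 CPM. Females lay above males on either diet without overlap. The log2 fold change of females over males was 1.06 (SE 0.28, adjusted p = 0.0189) on the normal diet and 1.72 (SE 0.29, adjusted p = 0.000843) on the high fat diet. The call on the normal diet was lost without female normal diet replicate 1 or 2 or male normal diet replicate 3 or 4, or without the low count filter, at adjusted p-values of 0.055 to 0.0676. The diet difference was 0.50 (SE 0.28, adjusted p = 0.268) in females and -0.16 (SE 0.28, adjusted p = 0.753) in males, and in males -0.85 (SE 0.25, adjusted p = 0.0523) with replicates 2 and 3 left out. Serpina6 was a single-copy feature in these data: all its expected counts were whole numbers, and none of its 100-base coding windows occurred in another gene.

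**Figure D4:**
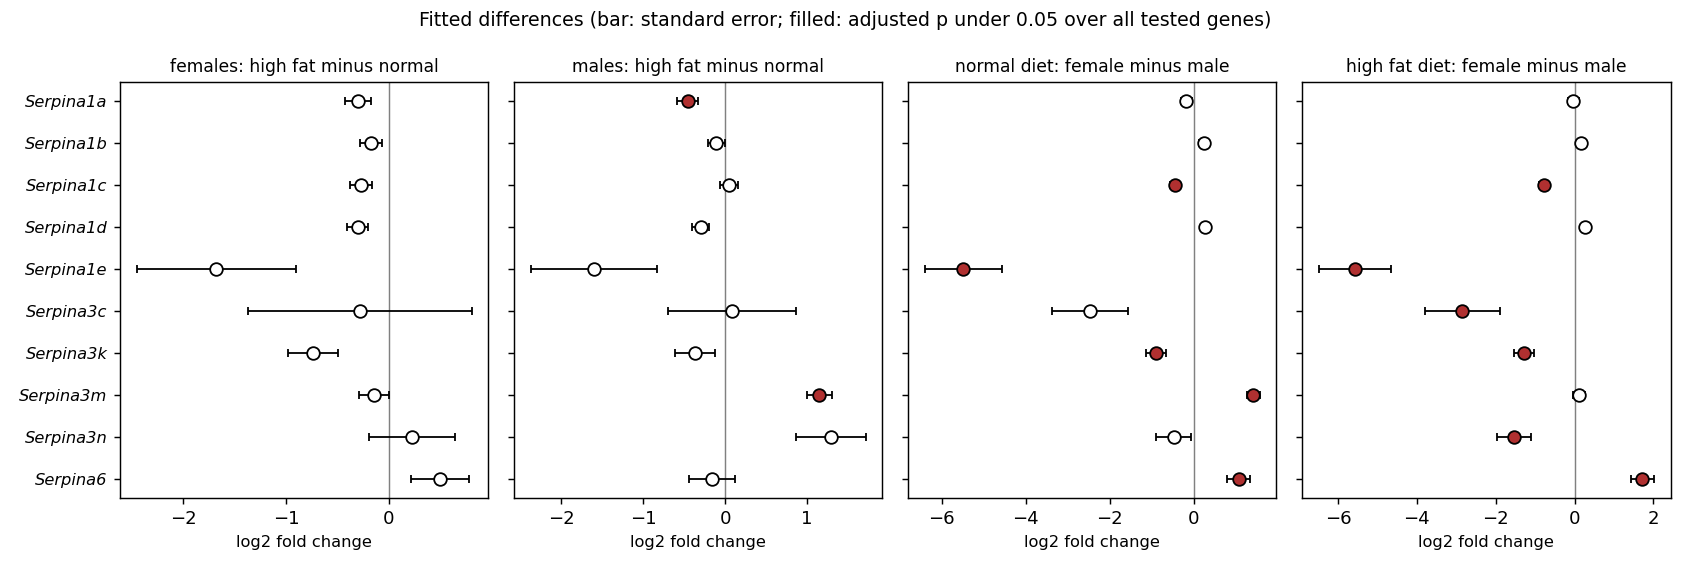
Log2 fold change of each gene with its standard error (bar) in the 4 contrasts of groups; filled points passed an adjusted p of 0.05 over all tested genes, and each panel has its own x axis. No point is filled for diet in females, Serpina1a and Serpina3m are filled for diet in males, and Serpina1e is the point farthest from 0 in both sex panels.

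Counted over the 10 genes, none was called for diet in females by edgeR's quasi-likelihood test, with 5 at an unadjusted p under 0.05. Over all 14781 tested genes this contrast called 11.5%, 5.74% upward and 5.76% downward with the high fat diet. For diet in males 2 of the 10 were called, Serpina3m higher and Serpina1a lower, against 11.4% of all genes (6.03% higher, 5.36% lower). For the difference between the sexes' diet changes 1 was called, Serpina3m, lower in females, against 0.677% of all genes (0.264% higher, 0.413% lower). On the normal diet 5 differed between the sexes, Serpina1c, Serpina1e and Serpina3k lower and Serpina3m and Serpina6 higher in females, against 15.7% of all genes (7.03% higher, 8.68% lower). On the high fat diet 6 differed, Serpina1c, Serpina1e, Serpina3c, Serpina3k and Serpina3n lower and Serpina6 higher in females, against 20.4% of all genes (8.84% higher, 11.6% lower). Serpina3c is among these 6 by a filter that it passed through males of both diets, including high libraries of the group compared. With the high fat diet groups alone 4 of the 9 members tested were called, against 1958 of 14143 genes. The sex contrasts share no library with each other, but each shares its libraries with the diet contrasts. In this order of contrasts, DESeq2 called 4, 5, 1, 8 and 7 of the 10, against 15.7%, 15.2%, 2.40%, 19.6% and 23.7% of all genes it tested. Leaving out male high fat diet replicates 2 and 3 gave counts of 3, 2, 2, 6 and 6, against 11%, 7.61%, 0.844%, 16.2% and 17.4% of all genes. Averaging the pair gave 0, 2, 1, 6 and 6, against 10.8%, 7.84%, 0.385%, 15.3% and 17.2%.

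**Figure D5:**
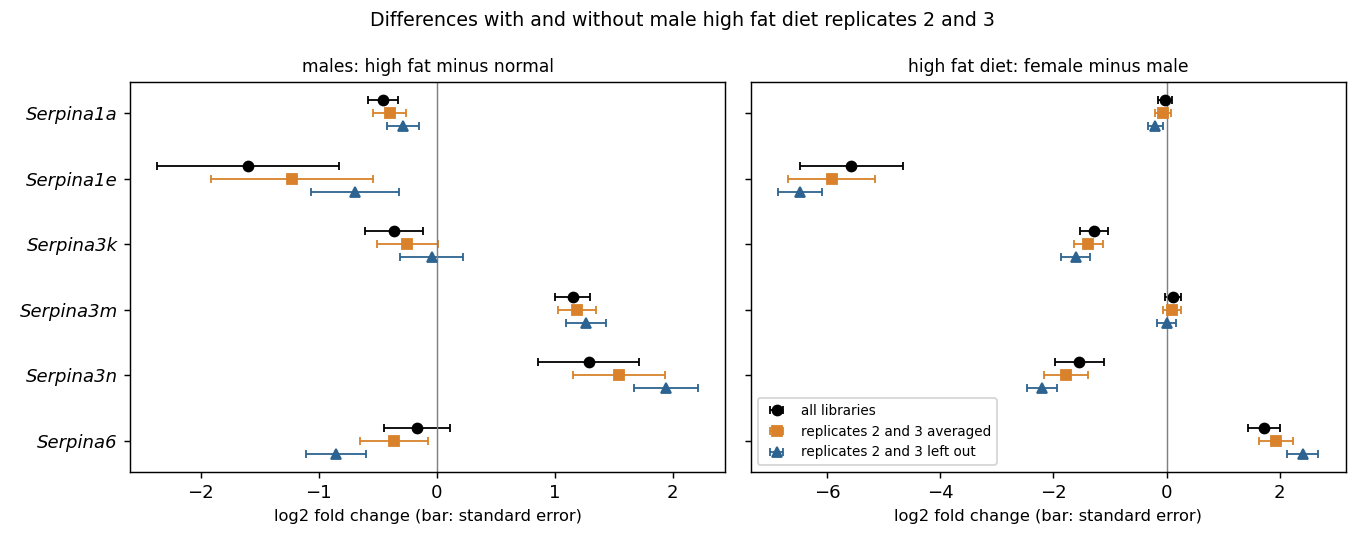
Log2 fold changes with standard errors of 6 genes for diet in males (left) and for sex on the high fat diet (right), with all libraries, with the pair of male high fat diet replicates 2 and 3 made 1 library by averaging, and with both left out; each panel has its own x axis. Serpina3n moves from 1.29 to 1.94 on the left and from -1.54 to -2.20 on the right, and Serpina3m stays between 1.15 and 1.27 on the left.

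The lists of other genes below were assembled for this family. A list's median is set beside the medians over all tested genes, which lay between -0.01 and 0.01 in the 5 contrasts. Of 17 other genes of the Serpina clade that were listed, 8 were tested. The high fat diet raised 3 in females and 1 in males, and Serpina7, the thyroxine-binding globulin, was in both, at 1.43 (SE 0.30, adjusted p = 0.00748) in females and 2.23 (SE 0.30, adjusted p = 0.00036) in males. The other genes called in females were Serpina3f (1.51, adjusted p = 0.0207) and Serpina3g (1.30, adjusted p = 0.0224). The medians were 0.31 and 0.38. Between the sexes, 3 of the 8 were lower in females on the normal diet, Serpina9 (-3.58, adjusted p = 0.00763), Serpina4-ps1 (-2.75, adjusted p = 0.0336) and Serpina12 (-2.18, adjusted p = 0.0422), with a median of -0.47. On the high fat diet 2 were higher, Serpina3g (1.76, adjusted p = 0.00291) and Serpina3f (1.80, adjusted p = 0.00547), and 3 lower, with a median of -0.68.

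Of 17 serpins of other clades, 14 were tested. Serpine2, protease nexin-1, was lower in females by -2.94 (SE 0.36, adjusted p = 8.75e-05) on the normal diet and by -2.71 (SE 0.37, adjusted p = 0.000219) on the high fat diet. Serpinb1a, an inhibitor of neutrophil proteases, was higher in females on the normal diet by 2.64 (SE 0.60, adjusted p = 0.0104), and Serpinc1, antithrombin, was higher in females on the high fat diet by 0.47 (SE 0.10, adjusted p = 0.00321). In all 4 were higher and 1 lower in females on the normal diet (median 0.18), and 5 were higher and 2 lower under high fat feeding (median 0.40). For diet in males, 2 were called higher, Serpinb8 and Serpinb6b (median 0.11). With male high fat diet replicates 2 and 3 left out, 0 of the 14 were called higher and 2 were called lower.

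Of 15 tested proteases that serpins act on, none was called for diet in females (1 at an unadjusted p under 0.05, 1 by DESeq2) or in males (2 unadjusted, none by DESeq2), with medians of -0.02 and -0.05. Females were higher in F7, coagulation factor VII, by 0.55 (SE 0.11, adjusted p = 0.00241) and in Gzmb, granzyme B, by 1.78 (SE 0.48, adjusted p = 0.0175) on the normal diet, and both were called also on the high fat diet, where Prtn3, a neutrophil protease, was lower (adjusted p = 0.0134), at 7.06 and 3.32 CPM in male replicates 1 and 4 and under 0.1 CPM in the other 6 libraries on that diet. The medians were 0.09 and 0.16. Among 16 tested plasma protease inhibitors that are not serpins, Mug1, a murinoglobulin, was lower in females on both diets, by -0.99 (SE 0.18, adjusted p = 0.00146) and -1.45 (SE 0.18, adjusted p = 3.55e-05). On the normal diet 1 of the 16 was higher and 2 were lower in females (median 0.06), and on the high fat diet 2 were higher and 1 lower (median -0.08). Diet called Timp3 lower in females (-0.78, adjusted p = 0.00206; median -0.13) and, in males, Timp1 higher (adjusted p = 0.0168, from 0.114 CPM or less to between 0.136 and 0.708 CPM) and Itih2 lower (-0.48, adjusted p = 0.0166; median -0.18). With male high fat diet replicates 2 and 3 left out, 3 of the 16 were called higher for diet in males and 0 lower. Between the sexes on the high fat diet, 1 was then higher and 5 were lower in females.

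Serpina3n belongs to the acute phase genes by reputation, and 22 others were listed and tested. For diet in males 2 were higher, Steap4 (1.80, SE 0.48, adjusted p = 0.0286) and Orm3 (2.51, SE 0.68, adjusted p = 0.0292), and the median was 0.65. With replicates 2 and 3 left out, 18 of the 22 were called higher. The serum amyloid gene Saa1 had 5386, 77.2, 71.6 and 2197 CPM in high fat diet males and 39.9, 469, 763 and 97.4 CPM in normal diet males, and the lipocalin Lcn2 had 1262, 19.2, 21.6 and 273 CPM on the high fat diet. Replicates 1 and 4 were the high ones, as for Serpina3n, and the part of an acute phase response in the result for Serpina3n was not tested. In females none of the 22 was called for diet by edgeR (1 unadjusted, none by DESeq2), with a median of 0.26. Between the sexes on the high fat diet, 8 were lower in females, among them Saa4, Steap4 and Saa1, with a median of -1.02, and 20 of 22 were lower with male replicates 2 and 3 left out. On the normal diet 2 were higher, Il1rn and Orm3, and 1 lower, Saa4 (median -0.43).

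Of 18 tested genes of the interleukin-6 and STAT3 pathway, which drives acute phase genes in hepatocytes, 3 rose and 5 fell in females on the high fat diet, with the receptor Il6ra at -1.33 (SE 0.19, adjusted p = 0.000266) and Cebpb at -1.15 (SE 0.21, adjusted p = 0.00218) among the lower and Il1b at 1.44 (SE 0.21, adjusted p = 0.00035) among the higher (median 0.09). In males 1 rose, Il1b at 1.74 (SE 0.23, adjusted p = 0.000116), and 2 fell, Nfkbia and Lifr (median 0.11). On the normal diet 1 was higher and 1 lower in females (median -0.13). On the high fat diet 3 were higher and 5 lower, led by Il1r1 at -1.85 (SE 0.34, adjusted p = 0.00203), with a median of -0.22.

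Growth hormone acts on hepatocytes through STAT5, and 16 genes of that pathway were tested. Cux2, a repressor known from female liver, was higher in females by 6.03 (SE 0.36, adjusted p = 8.81e-09) on the normal diet and by 6.70 (SE 0.40, adjusted p = 5.98e-09) on the high fat diet. It lay at 12.7 to 22.5 CPM in the 8 female libraries and at 0.428 CPM or less in the 8 male libraries, including male high fat diet replicates 2 and 3, at 0.170 and 0.172 CPM. The prolactin receptor Prlr was also higher in females, by 2.40 (SE 0.26, adjusted p = 1.47e-05) and 2.26 (SE 0.26, adjusted p = 2.33e-05). In all 4 were higher and 2 lower on the normal diet (median 0.17), and 5 higher and 2 lower under high fat feeding (median -0.13). Diet moved 2 up and 1 down in females, with Foxa2 at 0.78 and Foxa3 at -0.84 (median 0.12), and 2 up and 2 down in males, with Stat5a at 1.15 (SE 0.19, adjusted p = 0.000834) and Trim24 at -0.91 (SE 0.16, adjusted p = 0.00119; median 0.07).

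Beside the carrier Serpina6, genes of the glucocorticoid receptor pathway were lower on the high fat diet in both sexes, 8 of 14 in females (median -0.72) and 6 of 14 in males (median -0.55), and none was higher. Direction and calls refer to libraries scaled so that the median of all genes lay near 0. On library totals alone that median was 0.19 in females and 0.10 in males. Fkbp5, a chaperone induced by glucocorticoids, fell by 1.42 on the log2 scale (SE 0.16, adjusted p = 4.18e-05) in females and by 1.69 (SE 0.16, adjusted p = 5.91e-06) in males. Tat, tyrosine aminotransferase, fell by 1.81 (SE 0.19, adjusted p = 1.63e-05) in females and by 1.42 (SE 0.19, adjusted p = 0.000125) in males. Fkbp5 in high fat diet males was 38.4, 47.0, 46.7 and 38.5 CPM, so the 4 replicates were close together here. In males 4 of 14 were called lower with replicates 2 and 3 left out. Between the sexes, 3 were higher and 2 lower in females on the normal diet (median 0.01) and 1 higher and 4 lower under high fat feeding (median -0.41), with the steroid reductase Srd5a1 lower on both (-0.91 and -1.07). Among 10 tested carriers of hormones and vitamins in plasma, 2 were higher in females on the high fat diet (median -0.21) and 1 was higher and 3 lower in males (median -0.15). Between the sexes none was called on the normal diet by edgeR (3 unadjusted, 3 by DESeq2; median 0.24), and 4 were higher in females on the high fat diet (median 0.41), with Igfals at 0.71 (SE 0.11, adjusted p = 0.000385).

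Of 17 hepatocyte transcription factors, 5 rose and 2 fell in females on the high fat diet (median 0.16), and 2 fell in males (median 0.14). Hnf4a fell in both, by 0.60 (SE 0.12, adjusted p = 0.00331) and 0.47 (SE 0.11, adjusted p = 0.0139). Foxa1 was lower in females by -1.04 (SE 0.19, adjusted p = 0.00168) on the normal diet and -1.10 (SE 0.19, adjusted p = 0.000897) on the high fat diet, in a list with 1 higher and 4 lower (median -0.33) and 1 higher and 3 lower (median -0.18). Serpins are folded and exported through the endoplasmic reticulum, and of 22 genes of that route 8 were lower in females on the normal diet (median -0.40), led by the ubiquitin ligase Syvn1 at -1.50 (SE 0.29, adjusted p = 0.00366), and 6 lower and 1 higher on the high fat diet (median -0.34). With male high fat diet replicates 2 and 3 left out, 14 were lower in females on the high fat diet and 0 higher. Diet called 1 lower in females, Sec23a (-0.44, adjusted p = 0.0231; median -0.14), and none in males (4 unadjusted, 1 by DESeq2; median -0.18). In the contrast of the sexes' diet changes, none of these 11 lists had a called gene by edgeR, at 1 to 6 genes a list with an unadjusted p under 0.05 and up to 2 called by DESeq2.

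The genes most like each member were taken as those with the highest Pearson correlation of log2 CPM over the 16 libraries, leaving out genes whose mean log2 CPM was below 1. These correlations describe genes read in the same libraries, which share their groups. For Serpina1e they were C8b, a chain of the complement complex that lyses cells (r = 0.99), and Ugt2b38, a glucuronosyltransferase (r = 0.98). For Serpina3n they were Steap4, a metalloreductase (r = 0.97), and Prg4 (r = 0.95). For Serpina6 they were Hdac11 (r = 0.95) and Serpinb1a (r = 0.95), and for Serpina1c they were Eml5 (r = 0.97) and Mup12 of the major urinary proteins (r = 0.96). For Serpina3k they were Serp1 and Ces3b (both r = 0.96), for Serpina1a Selenos and Pa2g4 (both r = 0.95), and for Serpina1d Gc, the vitamin D carrier (r = 0.94), and Ctsf (r = 0.93). For Serpina1b they were Ndufab1 (r = 0.89) and Etfb (r = 0.88), for Serpina3c Copg1 and Scfd1 (both r = 0.93), and for Serpina3m A630031M04Rik (r = 0.91) and Gm27216 (r = 0.89). Among the members, Serpina1e and Serpina3k ran together (r = 0.91), and Serpina6 ran opposite to Serpina3k (r = -0.91), Serpina1c (r = -0.91) and Serpina1e (r = -0.86).

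In bulk liver, fewer hepatocytes and less RNA per hepatocyte cannot be told apart. The summed hepatocyte markers lay at 108759 to 122870 CPM in females on the normal diet, 84573 to 102079 CPM in females on the high fat diet, 87151 to 97853 CPM in normal diet males and 57882 to 79551 CPM in high fat diet males. In the last group replicates 1 and 4 were lowest, at 57882 and 59433 CPM. Most of that sum and of its drop was Alb, at 37643 and 39443 CPM there against 58217 and 58556 CPM in replicates 2 and 3. Cps1 and Asgr1 also lay lower in replicates 1 and 4, and Ahsg lay higher, at 5370 and 4438 CPM against 3895 and 4067 CPM. The 9 Kupffer cell and macrophage markers, all detected, summed to 265 to 381 CPM, 441 to 611 CPM, 248 to 351 CPM and 221 to 428 CPM in the same order of groups, and 5 neutrophil markers to 0.760 to 6.06 CPM over the 16 libraries, with the defining marker Ly6g at 0.0392 CPM or less. The 5 adipocyte markers summed to 32.9 and 37.8 CPM in male high fat diet replicates 2 and 3. In the other 14 libraries they summed to 2.22 to 17.2 CPM. Most of the pair's sum was Cidec, at 22.4 and 26.9 CPM, and Cfd, at 9.64 and 10.2 CPM. Adipoq, at 0.611 and 0.412 CPM there, lay inside the range of the other libraries, and Lep was at 0.241 CPM or less. The 6 pancreatic acinar markers summed to 32.6 and 32.4 CPM in that pair and 4.54 to 16.5 CPM elsewhere. Within the pair Cela1 was alike, at 13.5 and 12.2 CPM. Amy2a5 differed, at 0 and 12.4 CPM, as did Cpa1, at 3.50 and 1.41 CPM, and Ctrb1, at 4.04 and 1.68 CPM. The 7 stellate cell markers summed to 218 to 395 CPM, the 6 endothelial markers to 118 to 183 CPM, the 5 bile duct markers to 46.9 to 90.0 CPM, the 7 markers of T and B cells to 1.62 to 7.93 CPM and the 5 red blood cell markers to 222 to 556 CPM over all libraries. Their part in the differences of the Serpina genes was not tested.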

How the data were processed

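Poly(A)-selected RNA of whole liver was sequenced in 16 libraries. Per the submitters' processing notes, STAR and RSEM were used with GRCm39, and no versions are given in the sources used here. The authors deposited RSEM expected counts per gene and TPM values (a level per transcript length) for each library, per the labels, and 4.89% of the expected counts were not whole numbers. Read length and the use of strand in counting are not given in the sources used here.

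Expected counts were rounded and fitted in edgeR 4.0.16 (R 4.3.3) with its quasi-likelihood test, robust, over all 16 libraries with TMM scaling. The low count filter kept 14781 genes, which hold 99.94% of counts. P-values were adjusted by Benjamini-Hochberg over all of them, and below 0.05 a gene is called. SE is the log2 fold change divided by the root of the F statistic. CPM is relative to the scaled library size, and TPM was used to compare levels between genes and for shares. Shares were tested by exact two-sided permutation, 36 tests. The scripts were tested on simulated data. For diet in females with 14555 genes, 48% of genes changed 1.5-fold and 86% of those changed 2-fold were recovered. Of all calls 8.24% were false, more than the threshold of 0.05 intends. Genes with few counts were not among those changed.

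All 10 genes are described, by a rule of naming every member, the 2 genes most like each by correlation, and up to the 3 called genes of lowest p in each list, with a few others named after their values were seen. The members and lists were chosen with earlier results of these data known. Alternatives were DESeq2 1.42.0, its size factors in edgeR, no scaling, no filter, limma 3.58.1 on log2(TPM + 1) and log2(TPM + 0.1), a replicate block, the compared groups alone, each library left out, and the pair of alike libraries averaged or left out. Coding sequences came from GENCODE M21 and promoters from RefSeq GRCm38.p6, aligned with MAFFT 7.526. Coordinates on GRCm39 are not used here. The diet comparison in females over the serpins of other clades is not reported here. Replicate numbers were checked for pairing, and correlations of same-numbered deviations ran from -0.16 to 0.18, so the numbers were not taken to pair libraries. Counting error is small at these depths next to the spread between libraries, except for Serpina3c.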

Additional observations from a re-analysis of the deposited data

Results flagged for a closer look

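Among 84 groups of 4 examined, of which chance flags about 1 in 20, 5 held a library far from the other 3. Serpina1b had 5706 CPM in female high fat diet replicate 1, against 4915 to 5043 CPM in the other 3. Serpina3k had 13345.5 CPM in female normal diet replicate 4, against 7872 to 8635 CPM, and with it the Serpina3 sum had 14483 CPM there, against 8989 to 9811 CPM. Serpina3m had 769.6 CPM in male high fat diet replicate 1, against 561 to 577 CPM. In the same library Serpina3k made up 83.7% of the summed Serpina3 TPM, against 89.1% to 89.4% in the other 3, while Serpina3n made up 11.7%, against 4.30% to 6.82%.

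The diet change of Serpina3m differed between the sexes by the interaction term of edgeR's quasi-likelihood test, at -1.30 on the log2 scale (females minus males), with all 4 male high fat diet libraries above all 4 male normal diet libraries and the female groups overlapping.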

How the results depend on the processing

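In each of the alternatives run for them, the sex differences of Serpina1c and Serpina1e on both diets, those of Serpina3k and Serpina6 on the high fat diet and of Serpina3m on the normal diet, the diet change of Serpina3m in males and its interaction kept their direction and call. Causes of the changes that follow were not tested. For diet in females the number of the 10 genes called (0) became 4 by DESeq2. It became 3 with male high fat diet replicates 2 and 3 left out. The shares of all genes in these settings are given above. With the compared groups alone it was 1 of 9 tested, against 1439 of 14009 genes. Leaving out single libraries gave 0 to 1, against 947 to 1647 genes. For diet in males (2) it became 5 by DESeq2. It was 1 on unscaled library totals (1830 of 14781 genes called), without the filter (1252 of 30041) and with the compared groups alone (1438 of 13908). By limma with either pseudocount it was also 1, against 1342 and 1393 of 14781 genes. Leaving out single libraries gave 1 to 2, against 1113 to 1912 genes. For the interaction (1) it became 2 with that pair left out. For sex on the normal diet (5) it became 8 by DESeq2 and, without the filter, 3 against 1820 of 30041 genes. Leaving out single libraries gave 3 to 5, against 1325 to 2488 genes. For sex on the high fat diet (6) it was 7 by DESeq2 and 7 on unscaled totals, the latter against 3366 of 14781 genes. It was 4 without the filter (2396 of 30041 genes) and 4 of 9 tested with the compared groups alone (1958 of 14143). Leaving out single libraries gave 4 to 6, against 1974 to 3019 genes. It was 4 without female high fat diet replicate 1 or 4 or male high fat diet replicate 1 or 4. A replicate block gave 0, 2, 1, 5 and 4 in the order of the contrasts, and the numbers do not pair the libraries.

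Signs turned in 71 cases, 61 for single genes, 1 for a sum and 9 for shares, all of differences that passed the test neither before nor after. All values are log2 fold changes. On unscaled totals these were Serpina1b 0.017 and Serpina3m 0.041 for diet in females, Serpina1b 0.031, Serpina1d 0.094 and Serpina1e 0.032 for the interaction, and Serpina1a 0.10 for sex on the high fat diet. By limma on log2(TPM + 1) and log2(TPM + 0.1) they were, for diet in females, Serpina1b 0.064 and 0.064, Serpina3c 0.0075 and 0.075 and Serpina3m 0.094 and 0.095, and for diet in males Serpina3c -0.012 and -0.34. For the interaction they were Serpina1b 0.092 and 0.092, Serpina1d 0.16 and 0.16, Serpina1e 1.04 and 1.03 and Serpina3c 0.019 and 0.41, and for sex on the high fat diet Serpina1a 0.15 and 0.15. With the replicate block they were Serpina3c -0.37 for diet in males and Serpina1e 0.44 for the interaction. The interaction of Serpina1d was 0.0067 by DESeq2 and with its size factors, 0.020 with the pair averaged and 0.038 with it left out, where Serpina1a had -0.022 and the Serpina3 sum 0.096 for diet in males. Serpina1a was 0.00041 for sex on the high fat diet with the compared groups alone. Leaving out single libraries gave ranges of -0.70 to 0.61 for Serpina3c, diet in females, and, for diet in males, -0.0081 to 0.081 for Serpina1c, -1.15 to 0.47 for Serpina3c and -0.37 to 0.0055 for Serpina6. For the interaction they were -0.030 to 0.055 for Serpina1d, -0.48 to 0.56 for Serpina1e and -0.78 to 0.89 for Serpina3c, and for sex on the high fat diet -0.11 to 0.10 for Serpina1a. The ranges in percentage points were -0.46 to 0.31 for the share of Serpina1c, diet in females, -0.0016 to 0.0011 for the share of Serpina3c, diet in males, and -1.41 to 1.14 for the share of Serpina3n, sex on the high fat diet. The alternatives of the share tests were expected counts and single libraries left out. Of these, 163 ended a call and 5 made one, and calls at the smallest p pass or fail together through their common adjusted value. Depth limits Serpina3c, at 2.08 CPM or less.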
